A study of Drosophila melanogaster with 9 samples.

Results

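Groucho depletion was compared with control in sorted Dl > GFP+ cells of the adult *Drosophila* midgut, in 3 libraries against 3. The comparison covers all genes whose mean FPKM over all 9 libraries of the series, 3 of them from *Notch-RNAi* cells, was 0.1 or more, 11493 of the 17481 in the deposited table, and is described here for pathways, gene families and cell-state programmes other than the *E(spl)* complex, *Dl* and the cell cycle. FPKM is the number of fragments on a gene per kilobase of its transcript and relative to all mapped fragments of the library. Both groups carried *Dl-Gal4*, *UAS-GFP* and a temperature-sensitive *Gal80*, which holds Gal4 back at low temperature. The control cells expressed GFP only, and the *gro-RNAi* cells also expressed a hairpin against *gro*, from a line that the methods do not tie to these libraries. Crosses were kept at 18°C and adults of 3 to 5 days were shifted to 29°C for 4 days, while the labels give an age of 5 to 7 days. Living GFP+ cells, about 30000 per sample from about 200 midguts, were sorted, and their RNA was amplified before sequencing. The hairpin strain differs from control in its transgene and may differ in its background, and the strain and the depletion cannot be told apart in this design.

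Gro is a co-repressor without DNA-binding activity of its own. It is brought to its target genes by partner repressors such as Hairless and the Hairy and E(spl) bHLH proteins, and it acts in part through the histone deacetylase HDAC1. In the midgut epithelium an intestinal stem cell (ISC) gives rise to enteroblasts (EBs), which become absorptive enterocytes (ECs), and to enteroendocrine (EE) cells, which secrete peptide hormones. Notch signalling drives the EB to EC path, while the proneural gene *sc*, with *phyl* and *pros*, drives the EE path. *Dl-Gal4* marks the ISC through its Notch ligand, Delta.

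The libraries held an estimated 11200000, 12600000 and 11500000 reads in control and 14000000, 7620000 and 10000000 reads in *gro-RNAi*, from the steps between low FPKM values. The genes with a value above 0 numbered 11629 to 11811 in the control libraries and 11342 to 12139 in those of *gro-RNAi*. The labelled cell type was checked against markers, of which the 6 matched stem cell and EB markers summed to 154 to 298 FPKM in control and 227 to 374 FPKM in *gro-RNAi*. *Delta* (FBgn0000463; chromosome 3R, 19302731 to 19326217, minus strand) was at 6.56, 7.09 and 3.93 FPKM in control and 69.7, 30.8 and 25.6 FPKM in *gro-RNAi*, so the ISC marker was present in every library. EE and EC markers were also present, since the 11 EE markers summed to 1382 to 2817 FPKM in control and 2196 to 5349 FPKM in *gro-RNAi*, the 9 EC markers to 189.8 to 325 FPKM in control and 243 to 476 FPKM in *gro-RNAi* and the 10 matched visceral muscle markers to 456 to 637 FPKM in control and 508 to 733 FPKM in *gro-RNAi*. *Tm1*, which other cells also express, made nearly all of the last sum, and the other 9 muscle markers summed to 1.71 to 3.58 FPKM in control and 2.55 to 3.17 FPKM in *gro-RNAi*. No marker of these lists was at 0 in all 6 libraries. The summed markers of hemocytes, trachea and fat body were likewise under 5 FPKM in all 6 libraries. These are bulk values, in which fewer cells of a type and less RNA per cell cannot be told apart.

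*gro* (FBgn0001139; chromosome 3R, 26041736 to 26049911, plus strand) was at 19.9, 27.8 and 15.3 FPKM in control and 3.69, 13.8 and 9.53 FPKM in *gro-RNAi*, and all 3 *gro-RNAi* values lay below all 3 control values. The log2 fold change was -1.36, and the call was not reached (adjusted p = 0.094; two-sided exact permutation p = 0.1, the smallest that 3 libraries against 3 can give). *gro-RNAi* replicate 2, at 13.8 FPKM, was close to the lowest control library.

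Of the 11493 genes, 720 were called higher in *gro-RNAi* (6.26%) and 141 lower (1.23%) by limma at a Benjamini-Hochberg adjusted p under 0.05. All 720 had every *gro-RNAi* library above every control library, and 140 of the 141 had every one below. The calls were made on these same values, so such separation largely follows from the selection. It is no separate support, and its share over all genes is not given. All 9 libraries, those of *Notch-RNAi* included, gave the estimate of the spread. With only the 6 libraries compared in the fit, 160 genes were called higher and 34 lower, and 53 of the 153 called genes named here kept their calls. The split also depended on the scale. On the deposited values the median log2 fold change of all tested genes was 0.27, and the most abundant feature, lncRNA:CR40469, took 14.4% to 16.4% of the summed FPKM in control but 5.85%, 7.22% and 14.03% in *gro-RNAi*. When the 9 libraries were centred on the same median, 212 genes were called higher (1.84%) and 309 lower (2.69%). All 212 were among the 720, and 139 of the 141 lower calls were made on both scales. Left out one at a time, no single library was needed for 205 of the higher and 34 of the lower calls, and 163 and 34 calls met both conditions. Without C2, C3, G2 or G3 the counts fell to 391, 284, 260 and 336 higher and 79, 54, 53 and 70 lower calls, where C and G stand for the control and the *gro-RNAi* libraries by replicate number. The genes that met both conditions are described as held on both scales and without any 1 library. Fold changes are of log2(FPKM + 0.1) with their standard errors, a scale that understates changes of low genes, and p-values are limma's adjusted over all 11493 genes. They measure the spread between these libraries only. The median of all genes was 0.27 on the deposited values and -0.10 when centred, so 0 is the middle of neither scale. Counts of list members above or below 0, or with an unadjusted limma p under 0.05, are given without the share over all genes. Such counts therefore show no excess by themselves.

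**Figure D1:**
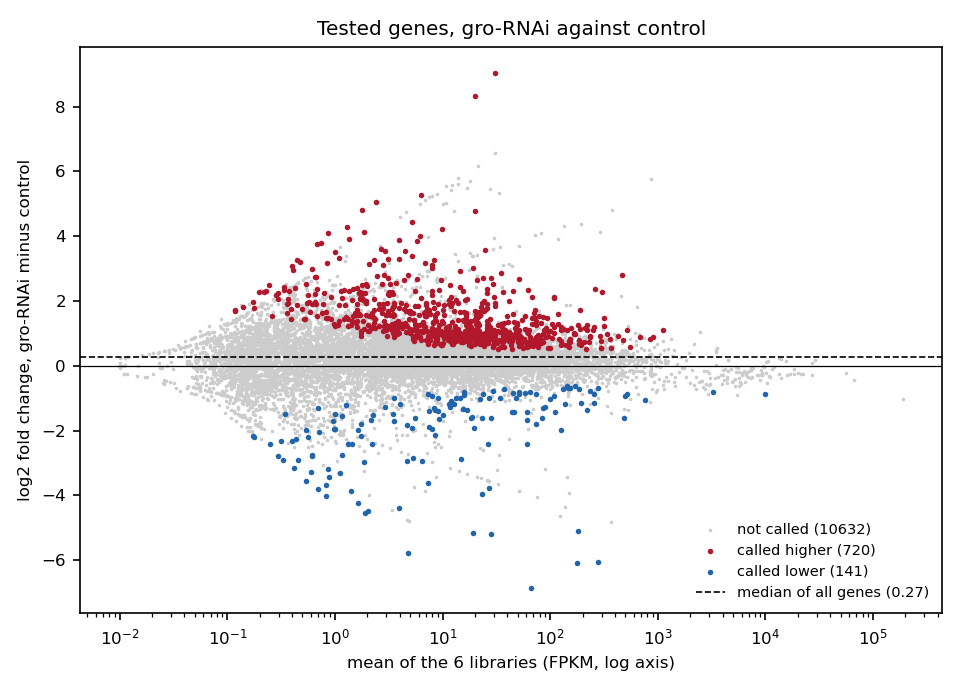
Mean of the 6 libraries (FPKM, log axis) against the log2 fold change, *gro-RNAi* minus control, with 1 point per tested gene. The 720 genes called higher and 141 called lower are coloured, and the dashed line marks the median of all genes, 0.27, which lies above 0.

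Of the genes of the EE path, *nerfin-1*, *phyl* and *pros* rose, while the peptide hormones of mature EE cells did not pass the test. Of 14 tested genes of EE specification, 3 were called higher (6.26% of all genes) and none lower, and the median log2 fold change of the list was 1.53 against 0.27 for all genes. The zinc finger factor *nerfin-1* (FBgn0028999; chromosome 3L, 909112 to 912319, plus strand) was at 0.0844, 0.15 and 0.0272 FPKM in control and 1.46, 0.861 and 0.627 FPKM in *gro-RNAi*, so it stayed low in both groups (log2 fold change 2.51 ± 0.46, adjusted p = 0.0149). *pros*, the homeodomain factor that defines EE cells, was at 1.90, 1.25 and 1.85 FPKM in control and 8.33, 4.03 and 3.50 FPKM in *gro-RNAi* (log2 fold change 1.53 ± 0.34, adjusted p = 0.032). *phyl*, an adaptor that targets the repressor Ttk for degradation, was at 0.259, 0.413 and 0.501 FPKM in control and 7.99, 1.36 and 1.44 FPKM in *gro-RNAi* (log2 fold change 2.45 ± 0.62, adjusted p = 0.0452). In each of these genes every *gro-RNAi* library was above every control library, and for *phyl* replicate 1 was far above the others. The proneural gene *sc* was at 1.303, 0.365 and 0.199 FPKM in control and 4.75, 2.4995 and 1.45 FPKM in *gro-RNAi*, a difference of 2.22 on the log2 scale that was not called (adjusted p = 0.0548), and the neuroendocrine factor *dimm* was at 0.109, 0.146 and 0.137 FPKM in control and 1.14, 0.408 and 0.366 FPKM in *gro-RNAi* (adjusted p = 0.0579). With the libraries centred, *nerfin-1* and *pros* kept their calls (adjusted p = 0.0252 and 0.0477) and *phyl* did not (0.072).

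*nerfin-1* lost its call without C3 or G2 (adjusted p up to 0.0541), *pros* without C2, C3 or G2 (adjusted p up to 0.0914) and *phyl* without any library but G1 (adjusted p up to 0.103). The summed EE markers, given above, were higher in *gro-RNAi* with overlap between the groups, 1 of the 11 was called (*pros* itself), and their part in these results was not tested.

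None of the 12 peptide hormone genes was called by limma, 5 had an unadjusted p under 0.05, and their median was 0.59. *Tk*, which encodes tachykinins, was at 138, 55.4 and 110.3 FPKM in control and 209, 172 and 148 FPKM in *gro-RNAi* (adjusted p = 0.133). *AstC*, the highest of the list in control, was at 654, 339 and 550.1 FPKM in control and 1466, 753 and 669 FPKM in *gro-RNAi* (adjusted p = 0.145). In both, all 3 of the *gro-RNAi* values exceeded all control values. *NPF* was at 299.6, 130.3 and 471 FPKM in control and 443, 57.5 and 149 FPKM in *gro-RNAi*, with overlap (adjusted p = 0.54). *AstA* was at 333, 331 and 699.8 FPKM in control and 68.3, 319.9 and 262 FPKM in *gro-RNAi*, where all *gro-RNAi* libraries were below control (adjusted p = 0.217). *Orcokinin* was at 69.4, 71.5 and 206 FPKM in control and 1971, 224 and 205 FPKM in *gro-RNAi*, where 1 library made most of the *gro-RNAi* mean (adjusted p = 0.133). Of 21 genes for peptide processing and release 1 was called higher, *Rph* (Rabphilin), near the 6.26% of all genes. *Rph* was at 2.58, 1.97 and 1.997 FPKM in control and 13.7, 4.28 and 5.71 FPKM in *gro-RNAi* (log2 fold change 1.64 ± 0.38, adjusted p = 0.0377). It lost the call on the centred scale (adjusted p = 0.0617) and without C1, C2, C3 or G3 (adjusted p up to 0.107).

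Among 16 progenitor factors 1 was called higher on the deposited values, near the 6.26% of all genes. *esg*, *lola* and *da* were not found by name among the deposited genes, so the list does not cover them. *sna*, a Snail family repressor related to the ISC factor Esg, was at 1.62, 1.59 and 3.02 FPKM in control and 35.8, 9.69 and 6.12 FPKM in *gro-RNAi* (log2 fold change 2.64 ± 0.56, adjusted p = 0.0265), and it was also called with the libraries centred (adjusted p = 0.0379). Its call was lost without C1, C2, C3 or G2 (adjusted p up to 0.0806). *heca* (*hdc*), a marker of imaginal progenitors, was at 49.0, 41.3 and 65.7 FPKM in control and 31.1, 31.7 and 29.6 FPKM in *gro-RNAi*, and was called lower when centred only (adjusted p = 0.0239, against 0.0931 on the deposited values). The list as a whole had a median of 0.25, close to that of all genes. None of 16 EC factors and brush border genes, and none of 11 regional homeobox and GATA factors, was called by limma, where 6 and 3 had an unadjusted p under 0.05. *GATAe*, a GATA factor of the midgut, was at 57.9, 43.1 and 30.4 FPKM in control and 40.3, 23.4 and 27.4 FPKM in *gro-RNAi* (adjusted p = 0.266).

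In the Notch machinery *pen-2* and *mam* rose. *pen-2* (FBgn0053198; chromosome 2R, 18277439 to 18278762, plus strand), a subunit of the γ-secretase that cleaves Notch, was at 28.8, 20.6 and 18.96 FPKM in control and 74.1, 72.4 and 58.0 FPKM in *gro-RNAi* (log2 fold change 1.59 ± 0.20, adjusted p = 0.00407), and held on both scales and without any 1 library. It overlaps *sbb*, and the strand setting of the counting is not given in the sources used here. *mam*, the coactivator of the Notch complex, was at 2.86, 1.96 and 1.49 FPKM in control and 6.13, 6.10 and 4.46 FPKM in *gro-RNAi* (log2 fold change 1.39 ± 0.28, adjusted p = 0.0204). *mam* missed the threshold on the centred scale (adjusted p = 0.0502) and without C2, C3, G1 or G2 (adjusted p up to 0.0751). Of the 16 tested genes of the list only *pen-2* and *mam* were called, against 6.26% of all genes called higher, and the list's median was 0.56.

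Among the repressors that recruit Gro, and the enzyme it acts with, *hry*, *Hey*, *tup*, *vnd* and *HDAC1* rose. Of 21 tested genes of this list 5 were called higher, against 6.26% of all genes, and none lower, with a median of 0.34. *hry* (*hairy*; FBgn0001168; chromosome 3L, 8675759 to 8679253, plus strand), a bHLH repressor that binds Gro, was at 30.9, 17.5 and 13.8 FPKM in control and 153, 95.8 and 66.3 FPKM in *gro-RNAi* (log2 fold change 2.34 ± 0.47, adjusted p = 0.0216), with no overlap between the groups and a mean 5.07-fold higher. *HDAC1* was at 53.6, 65.9 and 49.5 FPKM in control and 94.4, 107 and 107 FPKM in *gro-RNAi* (log2 fold change 0.88 ± 0.15, adjusted p = 0.0107). *Hey*, a bHLH repressor and Notch target, was at 0, 0.0506 and 0.0552 FPKM in control and 1.45, 0.416 and 0.254 FPKM in *gro-RNAi* (log2 fold change 2.31 ± 0.59, adjusted p = 0.048), and the homeodomain genes *tup* and *vnd* rose by 1.91 and 1.06 on the log2 scale. Only *hry* kept its call when the libraries were centred (adjusted p = 0.0282), and *HDAC1* was then at 0.51 on the log2 scale (adjusted p = 0.185). *hry* was lost without C2, C3, G1 or G2 (adjusted p up to 0.0795), *Hey* without any library but G3 (adjusted p up to 0.104), *tup* without any library but G3 (adjusted p up to 0.0832) and *vnd* without any library but C2 (adjusted p up to 0.104), while *HDAC1* kept its call without each. *CtBP*, the other co-repressor that binds Hairless, was at 233, 174 and 158 FPKM in control and 253, 252 and 204 FPKM in *gro-RNAi* and was not called (adjusted p = 0.317).

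**Figure D2:**
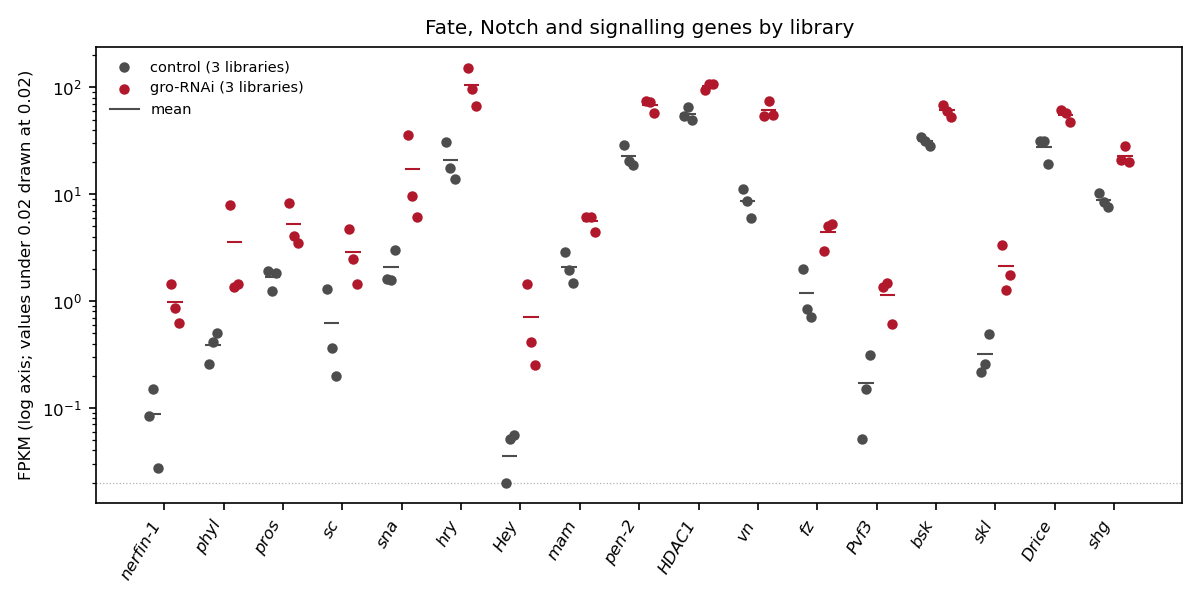
FPKM (log axis) of genes of fate, Notch and signalling in each of 3 control and 3 *gro-RNAi* libraries, with 1 point per library and a line at the group mean. *vn*, *pen-2*, *bsk* and *shg* show a gap between the groups that is wide against the spread within each, while *phyl* and *sc* spread widely in *gro-RNAi*.

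A ligand of the EGF receptor rose clearly. *vn* (*vein*; FBgn0003984; chromosome 3L, 5813338 to 5845664, minus strand), a neuregulin-like ligand known in the midgut from the visceral muscle, was at 11.1, 8.69 and 5.99 FPKM in control and 54.2, 75.3 and 55.7 FPKM in *gro-RNAi*, 7.17-fold higher in the mean (log2 fold change 2.86 ± 0.47, adjusted p = 0.00982), and held on both scales and without any 1 library. *vn* was the only 1 called of 23 tested genes of the EGFR and Ras list, near the 6.26% of all genes called higher. The list's median was 0.25. None of the 8 tested visceral muscle markers was called by limma or had an unadjusted p under 0.05. Their sums, given above, overlapped between the groups, and *Tm1*, the tropomyosin that made nearly all of them, was at 634, 454 and 459 FPKM in control and 730.2, 505 and 518 FPKM in *gro-RNAi* (adjusted p = 0.655).

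Single members rose in other pathways. In the Wnt list 2 of 19 were called higher, and 1 of 7 in that of PVR and FGF, against 6.26% of all genes. The Wnt receptor *fz* was at 1.99, 0.85 and 0.702 FPKM in control and 2.94, 5.04 and 5.24 FPKM in *gro-RNAi* (log2 fold change 1.90 ± 0.49, adjusted p = 0.0474) and the Wnt cofactor *pygo* at 5.005, 3.15 and 3.67 FPKM in control and 6.99, 9.01 and 8.97 FPKM in *gro-RNAi* (log2 fold change 1.08 ± 0.26, adjusted p = 0.0388). *Pvf3*, a ligand of the PVR receptor, was at 0.0515, 0.151 and 0.31 FPKM in control and 1.36, 1.46 and 0.608 FPKM in *gro-RNAi* (log2 fold change 2.23 ± 0.48, adjusted p = 0.0279). None of these 3 was called on the centred scale. *fz* was lost without any library but C1 (adjusted p up to 0.143), *pygo* without C2, C3, G2 or G3 (adjusted p up to 0.116) and *Pvf3* without C1, C2, G1 or G2 (adjusted p up to 0.0919).

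In the JNK pathway the kinase gene *bsk* (FBgn0000229; chromosome 2L, 10247502 to 10250501, minus strand) was at 34.3, 31.3 and 28.3 FPKM in control and 69.1, 60.7 and 53.2 FPKM in *gro-RNAi* (log2 fold change 0.96 ± 0.15, adjusted p = 0.00776), which held on both scales and without any 1 library. *grnd*, the TNF receptor upstream of it, was at 0.678, 0.609 and 0.69 FPKM in control and 4.399, 1.96 and 1.39 FPKM in *gro-RNAi* (log2 fold change 1.66 ± 0.40, adjusted p = 0.0402), but was not called on the centred scale or without any library but G3 (adjusted p up to 0.101). *bsk* and *grnd* were the 2 called higher of 15 tested genes of the JNK and stress list, against 6.26% of all genes. Of 10 apoptosis genes 2 rose, against the same share. *skl*, one of the genes that antagonise the inhibitors of apoptosis, was at 0.216, 0.255 and 0.487 FPKM in control and 3.32, 1.26 and 1.76 FPKM in *gro-RNAi* (log2 fold change 2.35 ± 0.45, adjusted p = 0.0184) and the effector caspase gene *Drice* at 31.6, 31.6 and 19.1 FPKM in control and 61.4, 57.2 and 47.7 FPKM in *gro-RNAi* (log2 fold change 1.04 ± 0.23, adjusted p = 0.0279). *skl* kept its call on the centred scale (adjusted p = 0.0295) and lost it without C2 or G3 (adjusted p up to 0.0579), and *Drice* was lost on the centred scale (0.118) and without C3, G1, G2 or G3 (adjusted p up to 0.0877).

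No member was called in the JAK-STAT (11 tested), BMP and activin (18), Hedgehog (9), Hippo (15), insulin and TOR (18) and ecdysone (16) lists by limma, where 6, 4, 3, 5, 3 and 1 had an unadjusted p under 0.05. *Med* of the BMP, *ds* of the Hippo, *InR* and *S6k* of the insulin and *br* of the ecdysone list were not found by name. The lists do not cover these genes. All 11 JAK-STAT genes lay above 0, with a median of 0.59 against 0.27 for all genes. When centred 9 lay above 0, with a median of 0.23. *Stat92E*, the transcription factor of the JAK-STAT pathway, was at 83.6, 59.1 and 58.7 FPKM in control and 101, 114.64 and 90.7 FPKM in *gro-RNAi* (adjusted p = 0.0669).

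Of 19 tested genes of integrins, matrix and adherens junctions 2 were called higher, *shg* and *alpha-Cat*, against 6.26% of all genes, and none lower. The list did not rise as a whole. Its median was 0.05, below that of all genes, and -0.31 when centred, where 12 of the 19 lay below 0. *shg* (FBgn0003391; chromosome 2R, 21049654 to 21057197, minus strand), the E-cadherin that ties ISCs and EBs together, was at 10.3, 8.46 and 7.54 FPKM in control and 20.7, 28.2 and 19.96 FPKM in *gro-RNAi* (log2 fold change 1.37 ± 0.20, adjusted p = 0.0056), and held on both scales and without any 1 library. Its partner *alpha-Cat* was at 30.1, 39.3 and 31.3 FPKM in control and 51.6, 56.6 and 48.7 FPKM in *gro-RNAi* (log2 fold change 0.65 ± 0.15, adjusted p = 0.0394), which was no longer called on the centred scale (adjusted p = 0.478) or without any library but C2 (adjusted p up to 0.118). None of 20 septate junction genes was called by limma, and 2 had an unadjusted p under 0.05. In the polarity list 1 of 12 rose, the spindle orientation gene *mud*, near the 6.26% of all genes. *mud* was at 0.525, 0.331 and 0.498 FPKM in control and 1.41, 1.49 and 1.299 FPKM in *gro-RNAi* (log2 fold change 1.46 ± 0.30, adjusted p = 0.0228, centred adjusted p = 0.0525), and it was lost without C2, C3, G2 or G3 (adjusted p up to 0.0747). Of 28 axon guidance receptors and ligands, a list made after the values were seen, 8 were higher, against 6.26% of all genes, and none was when centred. *robo1*, the receptor of Slit, was at 2.24, 2.03 and 1.97 FPKM in control and 3.71, 4.26 and 4.10 FPKM in *gro-RNAi* (log2 fold change 0.92 ± 0.20, adjusted p = 0.0305) and was lost without C2, C3, G2 or G3 (adjusted p up to 0.0934).

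Of 29 tested tetraspanins, membrane proteins with several spans, 2 were called higher, near the 6.26% of all genes, and none lower. The list's median was 0.35, close to that of all genes, and -0.02 when centred. The 2 were *Tsp42Ee* and *Tsp42Eq*, both abundant. *Tsp42Ee* (FBgn0029506; chromosome 2R, 7012254 to 7018362, plus strand) was at 114, 85.2 and 133 FPKM in control and 1209, 654 and 571 FPKM in *gro-RNAi*, 7.33-fold higher (log2 fold change 2.81 ± 0.31, adjusted p = 0.00214). *Tsp42Eq*, of the same gene cluster, was at 17.1, 11.0 and 16.2 FPKM in control and 111, 58.9 and 57.7 FPKM in *gro-RNAi* (log2 fold change 2.31 ± 0.28, adjusted p = 0.00339). Both held on both scales and without any 1 library. The cluster did not move as a whole, since *Tsp42Ed* was at 414, 288 and 342 FPKM in control and 383, 325 and 383 FPKM in *gro-RNAi* and *Tsp42Ef* at 313, 237 and 228 FPKM in control and 383, 335 and 270.1 FPKM in *gro-RNAi*, and the other 27 tested tetraspanins were not called on the deposited values. When centred, *Tsp29Fa*, at 1988, 1282 and 1740.5 FPKM in control and 1356, 1115 and 1039.5 FPKM in *gro-RNAi*, and *Tsp42El*, at 444, 412 and 512 FPKM in control and 402, 275 and 299 FPKM in *gro-RNAi*, were called lower (adjusted p = 0.0246 and 0.0164).

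Detoxification enzymes included several of the deepest decreases. Of 66 tested cytochrome P450 genes 5 were called lower, against 1.23% of all genes, and 1 higher, on both scales for the 5. *Cyp6a17* (FBgn0015714; chromosome 2R, 14873953 to 14875739, plus strand) was at 12.7, 8.18 and 7.80 FPKM in control and 0.201, 0 and 0.0703 FPKM in *gro-RNAi*, a mean 106-fold lower (log2 fold change -5.77 ± 0.42, adjusted p = 0.000657). *Cyp6w1* was at 10.5, 10.8 and 12.4 FPKM in control and 0.554, 1.83 and 2.44 FPKM in *gro-RNAi* (log2 fold change -2.94 ± 0.497, adjusted p = 0.0113), and *Cyp9f2*, the most abundant of them, was at 228, 150.2 and 224 FPKM in control and 51.8, 49.5 and 49.1 FPKM in *gro-RNAi* (log2 fold change -1.97 ± 0.18, adjusted p = 0.00102), so its *gro-RNAi* libraries lay within 3 FPKM of each other. These 3 held on both scales and without any 1 library. *Cyp9f3*, near *Cyp9f2* on chromosome 3R, changed by -1.08 on the log2 scale and *Cyp6v1* by -0.81. *Cyp9f3* was lost without C1, C3, G2 or G3 (adjusted p up to 0.101) and *Cyp6v1* without C2, C3, G1 or G2 (adjusted p up to 0.0897).

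*Cyp6a17* has a close copy, *Cyp6a23*, and reads from the pair could be divided between them by the counting. *Cyp6a23* was at 103, 36.0 and 43.8 FPKM in control and 491, 80.2 and 49.2 FPKM in *gro-RNAi* and was not called (adjusted p = 0.465). *Cyp6a17* is known to be lost in some fly strains, and the strain and the depletion cannot be told apart for it. The median of all P450 genes was 0.01, below that of all genes. The 1 P450 that was higher, *Cyp4d21*, was listed at 0 in every control library and at 0.375, 0.152 and 0.175 FPKM in *gro-RNAi*, was not called on the centred scale (adjusted p = 0.105), and lost the call without any 1 library (adjusted p up to 0.103).

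Other detoxification families also held genes that fell. Of 28 UDP-glycosyltransferases, which attach sugars to small molecules, 2 were lower, against 1.23% of all genes, and none higher, and when centred 3 were lower, against 2.69%. *Ugt317A1* was at 3.06, 0.859 and 1.18 FPKM in control and 0.0811, 0.0743 and 0 FPKM in *gro-RNAi* (log2 fold change -3.42 ± 0.55, adjusted p = 0.00907) and held on both scales and without any 1 library. *Ugt303B1* was at 19.4, 14.9 and 18.8 FPKM in control and 9.29, 8.46 and 8.42 FPKM in *gro-RNAi* (log2 fold change -1.005 ± 0.19, adjusted p = 0.0187) and was lost without C3, G2 or G3 (adjusted p up to 0.0677). Carboxylesterases, a list made after the values were seen, had 3 of 12 lower, and 4 when centred, against 1.23% and 2.69% of all genes. *Est-6* was at 2.80, 2.85 and 2.46 FPKM in control and 0.619, 0.755 and 0.462 FPKM in *gro-RNAi* (log2 fold change -1.99 ± 0.30, adjusted p = 0.00682), which held on both scales and without any 1 library, and *alpha-Est5* and *alpha-Est4* changed by -1.36 and -1.31 on the log2 scale. *alpha-Est5* was lost without C1, C3, G1 or G3 (adjusted p up to 0.122) and *alpha-Est4* without any library but G1 (adjusted p up to 0.128).

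Of 34 glutathione S-transferases 2 were higher and 1 lower, near the shares of all genes (6.26% and 1.23%), and when centred none was higher and 2 were lower (1.84% and 2.69%). *GstE10* was at 8.54, 9.34 and 19.9 FPKM in control and 5.72, 3.97 and 3.87 FPKM in *gro-RNAi* (log2 fold change -1.37 ± 0.34, adjusted p = 0.0442) and its cluster neighbour *GstE6* at 82.8, 85.3 and 102 FPKM in control and 224, 169 and 193 FPKM in *gro-RNAi* (log2 fold change 1.11 ± 0.20, adjusted p = 0.0146). *GstE6* kept its call without each library but not on the centred scale (adjusted p = 0.0565), while *GstE10* kept it on the centred scale (0.02) and lost it without any library but C1 (adjusted p up to 0.128). *GstZ2* was at 2.28, 1.35 and 2.21 FPKM in control and 12.2, 5.39 and 3.87 FPKM in *gro-RNAi* (log2 fold change 1.69 ± 0.40, adjusted p = 0.0377), which was lost on the centred scale (0.0525) and without any library but G3 (adjusted p up to 0.104).

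Carbohydrate enzymes also divided. Of 18 maltases, mannosidases and amylases 2 rose and 3 fell, against 6.26% and 1.23% of all genes, and the median of the list was -0.77. The maltases *Mal-A5* (FBgn0050359; chromosome 2R, 8462753 to 8465092, plus strand) and *Mal-A6* lie in one cluster on chromosome 2R. *Mal-A5* was at 1.56, 0.841 and 1.84 FPKM in control and 16.6, 6.08 and 7.50 FPKM in *gro-RNAi* (log2 fold change 2.67 ± 0.43, adjusted p = 0.00938) and held on both scales and without any 1 library. *Mal-A6* was at 10.4, 8.31 and 7.23 FPKM in control and 60.1, 49.5 and 42.7 FPKM in *gro-RNAi* (log2 fold change 2.54 ± 0.45, adjusted p = 0.014), called on both scales but not without C3 or G2 (adjusted p up to 0.0559).

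*Mal-A3*, of the same cluster, was lower, at 11.5, 8.68 and 21.1 FPKM in control and 1.23, 4.26 and 4.21 FPKM in *gro-RNAi* (log2 fold change -2.15 ± 0.52, adjusted p = 0.041). *Amyrel*, an amylase-related gene, was at 0.818, 0.949 and 1.89 FPKM in control and 0.301, 0.183 and 0.14 FPKM in *gro-RNAi* (log2 fold change -2.04 ± 0.44, adjusted p = 0.0265), and *Mal-B1* was at 0.788, 7.36 and 14.3 FPKM in control and 0, 0.919 and 0 FPKM in *gro-RNAi* (log2 fold change -4.40 ± 1.14, adjusted p = 0.0497). *Mal-A3* was lost without any 1 library (adjusted p up to 0.131), *Amyrel* without C2, C3, G2 or G3 (adjusted p up to 0.0848), and *Mal-B1* on the centred scale (0.0537) and without C2, C3, G1 or G3 (adjusted p up to 0.153). Reads shared between the close copies of the cluster could be divided between them by the counting.

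The fold changes of glycolysis genes lay below the median of all genes, to an extent that depended on the scale. Of 15 tested genes only *Gapdh1* was called lower, against 1.23% of all genes, and none higher. *Gapdh1* was at 146, 198 and 201 FPKM in control and 129.5, 101 and 109 FPKM in *gro-RNAi* (log2 fold change -0.68 ± 0.17, adjusted p = 0.0453), and it was lost without C2, C3, G2 or G3 (adjusted p up to 0.134). The list's median was -0.43 on the deposited values and -0.79 with the libraries centred, where 7 genes were called lower, against 2.69% of all genes, none higher and all 15 lay below 0. *Tpi* was at 142, 206 and 230.1 FPKM in control and 132, 80.5 and 94.1 FPKM in *gro-RNAi* (adjusted p = 0.0629, centred 0.0341), and *Ldh*, which makes lactate, was at 68.2, 57.0 and 104 FPKM in control and 139, 70.0 and 65.4 FPKM in *gro-RNAi* (adjusted p = 0.715). The glycogen synthase gene *Glys*, named after its values were seen, was at 23.1, 19.8 and 19.5 FPKM in control and 11.1, 11.8 and 10.2 FPKM in *gro-RNAi* (log2 fold change -0.91 ± 0.16, adjusted p = 0.0138), and *Gabat*, the GABA transaminase, at 32.0, 33.1 and 38.7 FPKM in control and 7.77, 14.3 and 12.8 FPKM in *gro-RNAi* (log2 fold change -1.61 ± 0.24, adjusted p = 0.0068). Both held on both scales and without any 1 library. *kdn*, the citrate synthase, was the 1 of 10 genes of the citric acid cycle called higher, against 6.26% of all genes. It was at 16.1, 14.9 and 14.8 FPKM in control and 22.9, 30.7 and 21.2 FPKM in *gro-RNAi* (log2 fold change 0.69 ± 0.17, adjusted p = 0.0454), and was lost when centred (0.372) and without any 1 library (adjusted p up to 0.123). Of 34 genes of respiratory complex I none was called by limma, and 4 had an unadjusted p under 0.05.

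**Figure D3:**
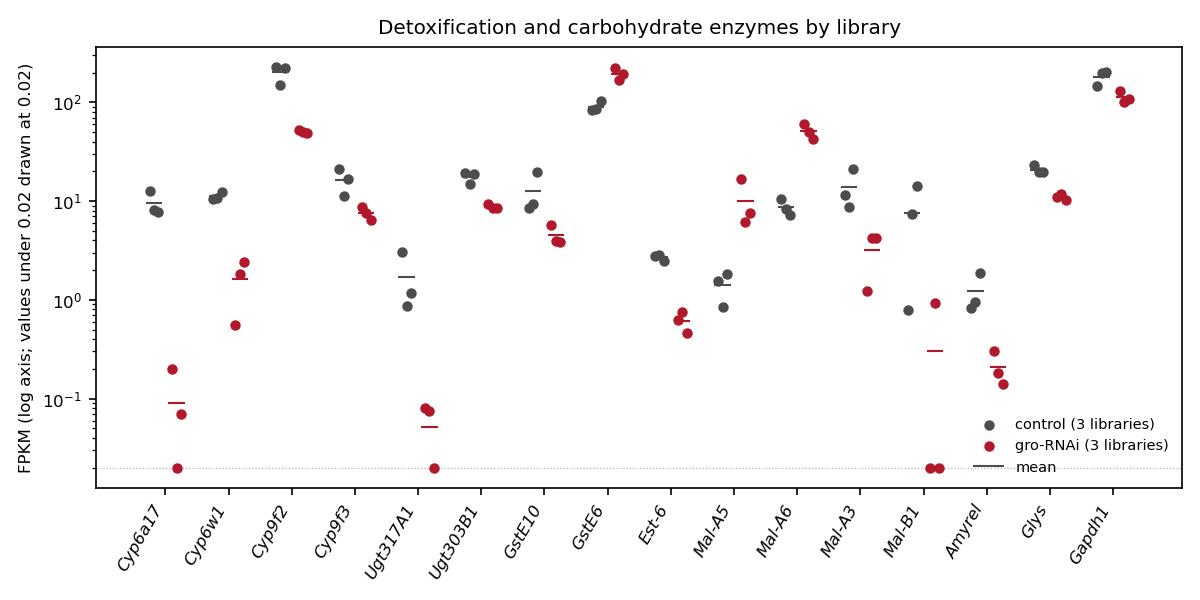
FPKM (log axis) of detoxification and carbohydrate enzymes in each of 3 control and 3 *gro-RNAi* libraries, with 1 point per library and a line at the group mean. *Cyp6a17*, *Cyp6w1*, *Cyp9f2* and *Ugt317A1* lie far lower in *gro-RNAi*, and *Mal-A5* and *Mal-A6* lie higher while *Mal-A3*, *Mal-B1* and *Amyrel* lie lower.

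Defence genes included called decreases and, among those named here, increases of which only *Listericin* held on both scales. Of 14 antimicrobial peptide genes 2 were lower, against 1.23% of all genes, and none higher. The list did not fall as a whole. Its median was 0.07, 7 of the 14 lay above 0, and the log2 fold changes ran from -3.66 to 3.66. *AttD*, an attacin, was at 169, 148 and 164 FPKM in control and 59.6, 56.6 and 63.7 FPKM in *gro-RNAi* (log2 fold change -1.42 ± 0.23, adjusted p = 0.00938), with little spread within either group. *CecC*, a cecropin, was at 0.473, 0.839 and 3.66 FPKM in control and listed at 0 in every *gro-RNAi* library (adjusted p = 0.0142). Its transcript is short, and the control values stand for an estimated 2, 4 and 16 reads only. Both held on both scales and without any 1 library. The lysozyme gene *LysP*, which overlaps *mwh*, was at 10.8, 23.7 and 6.22 FPKM in control and 1.49, 0.906 and 0.462 FPKM in *gro-RNAi* (log2 fold change -3.61 ± 0.63, adjusted p = 0.0134) and was lost without G2 (adjusted p 0.0503). It was the 1 called of 6 tested lysozymes, a list made after the values were seen, against 1.23% of all genes. That list had a median of -0.37, and its log2 fold changes ran from -3.61 to 3.93. The 4 fat body markers, from a tissue that makes antimicrobial peptides, summed to 0.0616 to 0.334 FPKM in control and 0.0589 to 0.487 FPKM in *gro-RNAi*.

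In the other direction, *Listericin*, which encodes an antibacterial protein and was named after its values were seen, was at 11.1, 25.3 and 13.5 FPKM in control and 72.1, 43.2 and 81.5 FPKM in *gro-RNAi* (log2 fold change 2.01 ± 0.34, adjusted p = 0.0106) and held on both scales and without any 1 library. *pirk*, a negative regulator of the Imd pathway, was at 113, 101 and 107 FPKM in control and 253, 187 and 147 FPKM in *gro-RNAi* (log2 fold change 0.83 ± 0.20, adjusted p = 0.0393), and the stress gene *TotA* was at 0, 0 and 0.44 FPKM in control and 1.09, 2.32 and 1.27 FPKM in *gro-RNAi* (log2 fold change 3.17 ± 0.69, adjusted p = 0.0292). Neither was called on the centred scale (adjusted p = 0.117 and 0.0535). *pirk* was the 1 called of 16 tested genes of the Imd list, near the 6.26% of all genes, and the list's median was -0.05. *pirk* was lost without any library but G3 (adjusted p up to 0.103) and *TotA* without any library but C3 (adjusted p up to 0.0998).

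Serpins, inhibitors of serine proteases, likewise divided, in a list made after the values were seen. Of 17 tested, 2 were higher and 3 lower on both scales. All genes had 6.26% higher and 1.23% lower on the deposited values, and 1.84% and 2.69% when centred. *Spn88Ea* was at 3.02, 3.54 and 3.61 FPKM in control and 13.3, 26.8 and 20.6 FPKM in *gro-RNAi* (log2 fold change 2.49 ± 0.26, adjusted p = 0.00191) and held without any 1 library. *Spn77Bc* was at 0.414, 0.306 and 0.668 FPKM in control and 2.80, 2.92 and 2.62 FPKM in *gro-RNAi* (log2 fold change 2.40 ± 0.43, adjusted p = 0.014) and was lost without G2 (adjusted p 0.0541). The 3 that were lower were neighbours, *Spn42Da*, *Spn42Dc* and *Spn42De*, with log2 fold changes of -0.77, -0.87 and -0.98. *Spn42Da* was lost without C3, G2 or G3 (adjusted p up to 0.09), *Spn42Dc* without C3, G2 or G3 (adjusted p up to 0.0899) and *Spn42De* without any library but C1 (adjusted p up to 0.133). None of 16 Jonah proteases, digestive enzymes of the gut, was called by limma or had an unadjusted p under 0.05. *Jon65Aiv*, the highest of them, was at 48.1, 179 and 31.9 FPKM in control and 412, 49.1 and 106 FPKM in *gro-RNAi*, with wide spread in both groups.

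Of 17 genes of redox control 3 were called higher and none lower on the deposited values, against 6.26% and 1.23% of all genes, and none was called when centred. The median of the list was 0.11, below that of all genes. *Prx3* and *Prx2*, peroxiredoxins, were at 197, 143 and 172 and 235, 231 and 200.03 FPKM in *gro-RNAi* against 64.6, 97.6 and 76.5 and 97.1, 112 and 125 FPKM in control (log2 fold changes 1.11 and 0.999, adjusted p = 0.0102 and 0.0053). Both kept their calls without each library, and neither was called on the centred scale (0.0915 and 0.0617). *Gclm*, for glutathione synthesis, was at 39.7, 34.2 and 44.1 FPKM in control and 122, 84.8 and 58.4 FPKM in *gro-RNAi* (log2 fold change 1.11 ± 0.28, adjusted p = 0.0449), not called when centred (0.137) nor without any library but G3 (adjusted p up to 0.124).

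Many genes of nuclear pores rose on the deposited values, and few when the libraries were centred. Of 21 nucleoporins 10 were called higher and none lower, against 6.26% of all genes, with a median of 0.82. Centred, 2 were called, the median was 0.45, and all 21 still lay above 0. Those 2 were *Nup35*, at 2.33, 2.69 and 4.26 FPKM in control and 15.4, 16.7 and 14.4 FPKM in *gro-RNAi* (log2 fold change 2.33 ± 0.24, adjusted p = 0.00191), and *Nup37*, at 9.35, 11.8 and 9.48 FPKM in control and 25.8, 26.9 and 26.5 FPKM in *gro-RNAi* (log2 fold change 1.37 ± 0.15, adjusted p = 0.00214), which held without any 1 library. *Nup133* and *Nup44A* changed by 1.24 and 1.09, and *Nup133* was lost without C3, G2 or G3 (adjusted p up to 0.0631).

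Of 36 proteasome subunits 8 were higher on the deposited values, against 6.26% of all genes (median 0.54), and none when centred, against 1.84% (median 0.17). *Prosbeta7* was at 105, 114 and 123 FPKM in control and 211, 247 and 216 FPKM in *gro-RNAi* (log2 fold change 0.98 ± 0.15, adjusted p = 0.00711; centred adjusted p = 0.119). Of 71 mitochondrial ribosomal proteins 6 were higher, near the 6.26% of all genes, with a median of 0.29 close to that of all genes. When centred none was higher, and the median was -0.07, against -0.10 for all genes. Cytosolic ribosomal proteins had a median of -0.27 on the deposited values, -0.63 when centred and -0.07 with quantile normalization. Of 86 tested, 2 rose and 1 fell on the deposited values, against 6.26% and 1.23% of all genes. When centred 1 was higher and none lower, against 1.84% and 2.69%. One of the 2, *RpS19b*, a paralog of *RpS19a*, was at 2.80, 2.16 and 2.54 FPKM in control and 8.80, 5.996 and 9.38 FPKM in *gro-RNAi* (log2 fold change 1.63 ± 0.23, adjusted p = 0.00487) and held on both scales and without any 1 library, while *RpS19a* was at 5663, 8385 and 7641 FPKM in control and 5518, 6422 and 6989.5 FPKM in *gro-RNAi* and was not called (adjusted p = 0.6).

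Of 33 ribosome biogenesis genes 3 were higher and 1 lower, near the shares of all genes (6.26% and 1.23%). The 1 that fell, *Non1*, a nucleolar GTPase, was at 862, 791 and 1479 FPKM in control and 463, 482 and 513 FPKM in *gro-RNAi* (log2 fold change -1.05 ± 0.23, adjusted p = 0.0303), called when centred and lost without G1, G2 or G3 (adjusted p up to 0.0895). Of 19 nuclear transport receptors and Ran genes 10 were higher, of 10 RNA exosome genes 4, and of 13 subunits of RNA polymerase II 3, all lists made after the values were seen (6.26% of all genes). When centred, 1 gene of these 3 lists was called, *Rrp46* of the exosome, at 8.01, 8.33 and 6.42 FPKM in control and 27.4, 22.9 and 22.9 FPKM in *gro-RNAi* (log2 fold change 1.68 ± 0.17, adjusted p = 0.00191), which held without any 1 library.

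**Figure D4:**
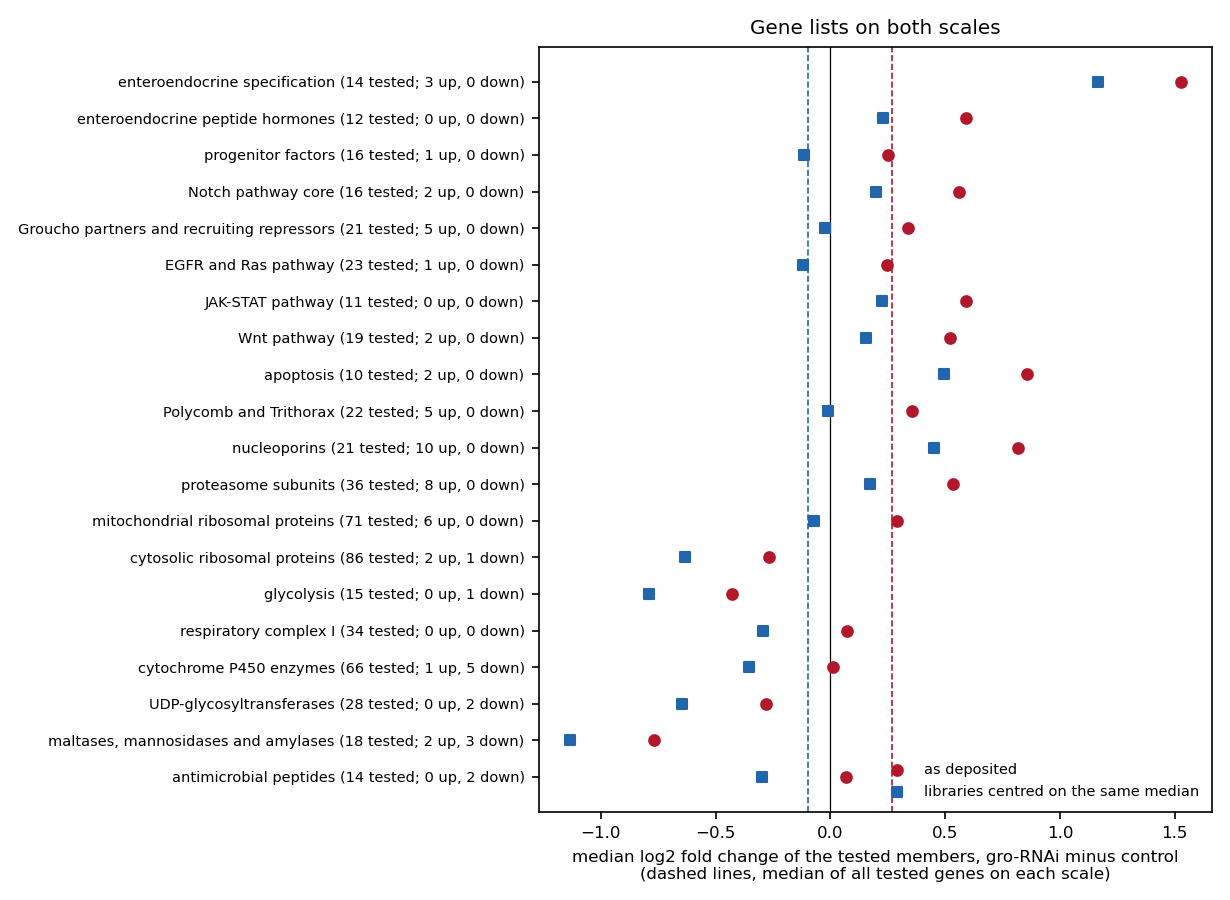
Median log2 fold change, *gro-RNAi* minus control, of the tested members of 20 gene lists, on the deposited values (circles) and with the libraries centred (squares), with the numbers called on the deposited values beside each name. Dashed lines mark the medians of all tested genes, 0.27 and -0.10. The EE specification genes lie farthest to the right of their line and the maltases and glycolysis to the left. The medians of the mitochondrial ribosomal proteins, progenitor factors and some others change sign between the scales, as does that of all genes.

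Of 22 Polycomb and Trithorax genes 5 were higher, against 6.26% of all genes (*Pc*, *brm*, *Utx*, *Sfmbt* and *E(z)*, with log2 fold changes of 1.05, 1.01, 0.92, 0.78 and 0.71) and none was called when centred, where 11 lay above and 11 below 0. *E(z)*, the methyltransferase of the Polycomb system, was at 7.03, 6.004 and 7.68 FPKM in control and 12.6, 11.5 and 10.005 FPKM in *gro-RNAi* (log2 fold change 0.71 ± 0.17, adjusted p = 0.0415). *Pc* was lost without any 1 library (adjusted p up to 0.115), *brm* without C1, C3, G2 or G3 (adjusted p up to 0.0834), *Utx* without C3 or G2 (adjusted p up to 0.0919), *Sfmbt* without any library but C1 (adjusted p up to 0.0889) and *E(z)* without any 1 library (adjusted p up to 0.112).

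Lists made after the values were seen gave further descriptions. Enzymes that supply deoxynucleotides had 5 of 10 higher on both scales, against 6.26% and 1.84% of all genes. *Ts*, thymidylate synthase, was at 3.83, 4.996 and 4.68 FPKM in control and 23.8, 26.4 and 23.4 FPKM in *gro-RNAi* (log2 fold change 2.43 ± 0.18, adjusted p = 0.000657). *RnrL* and *RnrS*, the ribonucleotide reductase subunits, changed by 1.58 and 1.41, *dUTPase* by 1.46 and *Dera* by 0.94, and all 5 held without any 1 library. These enzymes serve DNA replication, and of 38 cell-cycle genes, kept only as a reference, 23 were higher on the deposited values, against 6.26% of all genes. ESCRT genes, which sort membrane proteins into vesicles of the endosome, had 2 of 17 lower on the deposited values and 6 when centred, against 1.23% and 2.69% of all genes. *CHMP2B* was at 152, 196 and 222 FPKM in control and 95.2, 62.0 and 98.5 FPKM in *gro-RNAi* (log2 fold change -1.17 ± 0.21, adjusted p = 0.0145) and was lost without C3 (adjusted p 0.0559), and *Vta1* was at 156, 204 and 202 FPKM in control and 110.0, 131 and 111 FPKM in *gro-RNAi* (log2 fold change -0.67 ± 0.15, adjusted p = 0.0347) and was lost without any library but C1 (adjusted p up to 0.103).

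Genes of chitin turnover, for the lining of the gut lumen and for cuticle, a list made after the values were seen, had 3 of 14 higher, against 6.26% of all genes, and none lower, and 2 were higher when centred, against 1.84%. *Chs2*, the chitin synthase of the gut, was at 13.9, 11.1 and 13.7 FPKM in control and 30.6, 32.8 and 30.02 FPKM in *gro-RNAi* (log2 fold change 1.27 ± 0.15, adjusted p = 0.00327) and the chitinase gene *Cht2* at 0.907, 0.982 and 1.18 FPKM in control and 14.3, 4.81 and 6.44 FPKM in *gro-RNAi* (log2 fold change 2.79 ± 0.39, adjusted p = 0.00484), and both held on both scales and without any 1 library. The cuticle protein gene *Cpr51A* was at 62.8, 114.65 and 76.0 FPKM in control and 645, 336 and 343 FPKM in *gro-RNAi* (log2 fold change 2.36 ± 0.29, adjusted p = 0.00327), held likewise, and overlaps *CG30197*, which was lower, at 70.4, 145 and 126 FPKM in control and 19.4, 31.5 and 49.2 FPKM in *gro-RNAi* (log2 fold change -1.80 ± 0.39, adjusted p = 0.0285). Reads of that pair cannot be told apart without strand, and *CG30197* lost its call without C2, C3, G1 or G2 (adjusted p up to 0.0959).

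Genes known from the germ line and the male accessory gland included several that rose from low levels. *piwi* (FBgn0004872; chromosome 2L, 10982205 to 10987420, minus strand), which silences transposons with small RNAs, was at 0.854, 0.676 and 0.7 FPKM in control and 15.1, 8.404 and 5.14 FPKM in *gro-RNAi* (log2 fold change 3.39 ± 0.37, adjusted p = 0.00204). *tej*, of the same pathway, was at 0.584, 0.518 and 0.471 FPKM in control and 2.44, 5.82 and 4.99 FPKM in *gro-RNAi* (log2 fold change 2.77 ± 0.38, adjusted p = 0.00479). Both held on both scales and without any 1 library. Of 23 tested genes of this list, made after the values were seen, 6 were higher, against 6.26% of all genes, and none lower. When centred 2 were higher, against 1.84%. The list's median was 0.42 on the deposited values and 0.06 when centred, where 10 of the 23 lay below 0. The other called genes included *zuc*, *shu* and *del* (log2 fold changes 1.22, 1.23 and 1.03). These 3 were not called when centred, and *zuc* was lost without C2, C3 or G3 (adjusted p up to 0.0942), *shu* without C3, G1, G2 or G3 (adjusted p up to 0.0752) and *del* without any library but G1 (adjusted p up to 0.137). The germline markers summed to 0.898 to 1.40 FPKM in control and 1.65 to 2.32 FPKM in *gro-RNAi*. Of these, *bam* was called, at 0.3, 0.222 and 0.0485 FPKM in control and 0.877, 0.839 and 1.13 FPKM in *gro-RNAi* (log2 fold change 1.96 ± 0.41, adjusted p = 0.0263; centred 0.0658), and it was lost without C2, C3, G2 or G3 (adjusted p up to 0.0796). *nanos* was at 0.0839, 0.0761 and 0.0793 FPKM in control and 0.0667, 0.0624 and 0.0934 FPKM in *gro-RNAi*. Their part in the values of *piwi* was not tested.

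Accessory gland genes in one cluster on chromosome 2R stood out. *Acp53C14b* (FBgn0034153; chromosome 2R, 16748815 to 16749460, minus strand) was at 0.579, 0.771 and 0.561 FPKM in control and 6.97, 12.2 and 13.6 FPKM in *gro-RNAi* (log2 fold change 3.86 ± 0.34, adjusted p = 0.00102) and *Acp53C14c* at 1.39, 0.247 and 0.539 FPKM in control and 5.54, 9.73 and 9.61 FPKM in *gro-RNAi* (log2 fold change 3.56 ± 0.53, adjusted p = 0.00629), and both held on both scales and without any 1 library. Their neighbours *Acp53Ea* and *Sfp53D* were at 1.55, 5.20 and 3.98 and 2.20, 9.64 and 5.38 FPKM in *gro-RNAi* against 0, 0.575 and 0 and 1.10, 0.367 and 0.133 FPKM in control (adjusted p = 0.0434 and 0.0264). Neither was called when centred (0.0845 and 0.0503). *Acp53Ea* was lost without any library but C2 (adjusted p up to 0.134) and *Sfp53D* without C2, C3, G2 or G3 (adjusted p up to 0.0906). Of 23 tested genes named Acp or Sfp, a list made after the values were seen, 6 were higher, against 6.26% of all genes, and none lower. When centred 2 were higher, against 1.84%. The 6 include the neighbours named above, which lie in one cluster, so the count does not describe separate loci.

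The largest increases outside the lists included genes with known roles. *rtet* (FBgn0028468; chromosome 3R, 21108446 to 21110834, plus strand), a membrane transporter, was at 1.17, 1.14 and 0.54 FPKM in control and 23.4, 18.6 and 15.0 FPKM in *gro-RNAi*, 20.05-fold higher (log2 fold change 4.23 ± 0.35, adjusted p = 0.00102). *Lime* (FBgn0033458; chromosome 2R, 9871470 to 9873646, plus strand), a zinc finger gene, was listed at 0 in control replicates 2 and 3 and at 7.86, 3.35 and 3.01 FPKM in *gro-RNAi* (adjusted p = 0.00214), and it overlaps *peo*. *Sry-alpha*, known from the early embryo, was at 2.28, 1.198 and 1.71 FPKM in *gro-RNAi* and under 0.02 FPKM in every control library (adjusted p = 0.00191), and overlaps *Sry-beta*. *smal*, a discoidin domain receptor named after its values were seen, was at 1.7996, 0.876 and 1.296 FPKM in control and 10.5, 14.2 and 12.6 FPKM in *gro-RNAi* (log2 fold change 3.18 ± 0.28, adjusted p = 0.00102). These 4 held on both scales and without any 1 library.

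Next to the *Acp53* genes on chromosome 2R, *CG5348*, at 0.319, 0.324 and 0.398 FPKM in control and 5.996, 13.6 and 10.6 FPKM in *gro-RNAi* (log2 fold change 4.43 ± 0.45, adjusted p = 0.00191), lies within the span of the kinesin gene *unc-104* (FBgn0267002; chromosome 2R, 16751503 to 16772671, minus strand), at 9.31, 5.06 and 11.4 FPKM in control and 33.2, 43.0 and 53.6 FPKM in *gro-RNAi* (log2 fold change 2.37 ± 0.33, adjusted p = 0.00487). Both held likewise, and reads of their overlapping parts cannot be told apart without strand. The *Acp53* genes lie beyond the downstream end of *unc-104*, on the same strand. *CG34370* was at 0.206, 0.0183 and 0.04 FPKM in control and 1.99, 3.61 and 2.21 FPKM in *gro-RNAi* (log2 fold change 3.93 ± 0.49, adjusted p = 0.00373) and lncRNA:CR44042 at 0.319, 0.283 and 0.515 FPKM in control and 3.30, 10.4 and 8.66 FPKM in *gro-RNAi* (log2 fold change 3.88 ± 0.44, adjusted p = 0.00233), and they held too. The ionotropic receptor *Ir76a* was at 0.669, 0.148 and 0.162 FPKM in control and 8.61, 1.87 and 2.48 FPKM in *gro-RNAi* (log2 fold change 3.26 ± 0.63, adjusted p = 0.0191) and was lost without C2 or C3 (adjusted p up to 0.0708).

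Several small or noncoding RNAs were also among the largest increases. Of 154 tested small nucleolar RNAs (snoRNAs) 2 were called higher, below the 6.26% of all genes, and none lower. When centred 2 were higher and 2 lower, against 1.84% and 2.69% of all genes. The list's median was 0.34, and its log2 fold changes ran from -4.81 to 8.34. snoRNA:Psi28S-1175b and snoRNA:Psi28S-2566 were listed at 0 in every control library and at 11.8, 43.1 and 65.9 and 0.973, 7.12 and 2.72 FPKM in *gro-RNAi* (adjusted p = 0.000657 and 0.00929), and both lie in host genes. snRNA:U5:23D was listed at 0 in control and at 101, 61.6 and 23.6 FPKM in *gro-RNAi* (adjusted p = 0.0184) and was lost without C2, C3, G1 or G2 (adjusted p up to 0.0698). lncRNA:CR44272 was at 3.08, 4.55 and 0 FPKM in control and 71.4, 19.4 and 22.3 FPKM in *gro-RNAi* (log2 fold change 4.79 ± 1.24, adjusted p = 0.0497) and was lost when centred (0.082) and without C1, G1, G2 or G3 (adjusted p up to 0.135). *asRNA:CR43767*, which overlaps *Tango14*, was at 0.331, 15.8 and 21.8 FPKM in *gro-RNAi* and 0.17 FPKM or less in control (adjusted p = 0.0434), and was lost when centred (0.0832) and without any library but G1 (adjusted p up to 0.137). *CG17217*, which overlaps *CG6583*, was listed at 0 in every control library and at 0.643, 5.29 and 1.799 FPKM in *gro-RNAi* (adjusted p = 0.0145), and was lost without C3 (adjusted p 0.0524).

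*Prip*, *Tre1* and *loco*, abundant genes named after their values were seen, also rose. *Prip*, an aquaporin, was at 48.6, 38.7 and 36.1 FPKM in control and 187, 196 and 151 FPKM in *gro-RNAi* (log2 fold change 2.11 ± 0.20, adjusted p = 0.00143). *Tre1*, a G-protein-coupled receptor of migrating germ cells, was at 62.5, 69.9 and 46.8 FPKM in control and 163, 214 and 160.3 FPKM in *gro-RNAi* (log2 fold change 1.59 ± 0.21, adjusted p = 0.00456), and *loco*, a regulator of G-protein signalling, was at 56.3, 51.7 and 29.7 FPKM in control and 142, 132 and 105 FPKM in *gro-RNAi* (log2 fold change 1.501 ± 0.25, adjusted p = 0.01). In each, the groups were well apart, and all held on both scales and without any 1 library.

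Several of the largest decreases were in genes abundant in control. *lcs* (FBgn0028583; chromosome X, 21396727 to 21397316, minus strand) was at 49.7, 169 and 166 FPKM in control and 0, 10.9 and 0.738 FPKM in *gro-RNAi* (log2 fold change -6.84 ± 1.39, adjusted p = 0.0229). *whe* was at 264, 655 and 686 FPKM in control and 0.729, 54.7 and 8.67 FPKM in *gro-RNAi* (log2 fold change -6.06 ± 1.28, adjusted p = 0.026) and *CG16826* at 125, 316 and 593 FPKM in control and 0.892, 30.4 and 2.40 FPKM in *gro-RNAi* (log2 fold change -6.08 ± 1.10, adjusted p = 0.0145). In these genes *gro-RNAi* replicate 2 was the highest of the *gro-RNAi* libraries by several fold, and still below every control library. Over all 141 lower genes the highest *gro-RNAi* library was replicate 1 in 52, replicate 2 in 43 and replicate 3 in 46.

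*CG34212* was at 130.1, 432 and 491 FPKM in control and 2.69, 31.6 and 7.63 FPKM in *gro-RNAi* (log2 fold change -5.10 ± 0.80, adjusted p = 0.00843), and *CG33109* at 32.4, 37.2 and 38.4 FPKM in control and 0.0822, 6.17 and 0.806 FPKM in *gro-RNAi* (log2 fold change -5.15 ± 1.02, adjusted p = 0.0202), with the same order. *lcs*, *whe*, *CG16826* and *CG33109* were called on both scales, but *lcs* was lost without C2, C3 or G3 (adjusted p up to 0.0826), *whe* without C2, C3 or G3 (adjusted p up to 0.0895), *CG16826* without C2, C3 or G3 (adjusted p up to 0.0615) and *CG33109* without C2, C3 or G3 (adjusted p up to 0.0702), and *CG34212* held without any 1 library.

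Further decreases held on both scales and without any 1 library. *CG43679*, which overlaps *Sytbeta*, was at 31.6, 83.5 and 50.2 FPKM in control and 0.401, 2.20 and 2.25 FPKM in *gro-RNAi* (log2 fold change -5.20 ± 0.59, adjusted p = 0.00233), *CG9029* at 26.7, 74.9 and 30.7 FPKM in control and 1.40, 2.57 and 3.93 FPKM in *gro-RNAi* (log2 fold change -3.97 ± 0.55, adjusted p = 0.00484) and lncRNA:CR44720 at 2.99, 4.17 and 3.93 FPKM in control and 0, 0.311 and 0 FPKM in *gro-RNAi* (log2 fold change -4.55 ± 0.65, adjusted p = 0.00523). *Ag5r*, of a family of secreted cysteine-rich proteins, was at 22.6, 49.9 and 79.7 FPKM in control and 3.14, 6.05 and 1.67 FPKM in *gro-RNAi* (log2 fold change -3.78 ± 0.52, adjusted p = 0.00484). *CG15209* was at 115.16, 80.1 and 114 FPKM in control and 13.2, 21.9 and 23.6 FPKM in *gro-RNAi* (log2 fold change -2.41 ± 0.24, adjusted p = 0.00191) and *CG6357*, abundant in control, at 831, 564 and 780.4 FPKM in control and 329.7, 209 and 191 FPKM in *gro-RNAi* (log2 fold change -1.60 ± 0.26, adjusted p = 0.00944). Both groups stood well apart in every one of these 6 genes, and the last 3 were named after their values were seen. Of the other large decreases, *CG13947* and *CG43678* were listed at 0 in every *gro-RNAi* library, against 8.28, 0.272 and 3.56 and 0.756, 2.01 and 2.20 FPKM in control, *CR33319* was at 3.94, 4.66 and 1.06 FPKM in control and 0, 0 and 0.244 FPKM in *gro-RNAi*, and *pre-mod(mdg4)-J* was at 2.78, 2.35 and 2.84 FPKM in control and under 0.6 FPKM in *gro-RNAi*. *CG13947* was lost without any library but C2 (adjusted p up to 0.0935), *CG43678* without any library but C1 (adjusted p up to 0.113), *CR33319* without C1, C2, G1 or G2 (adjusted p up to 0.0868) and *pre-mod(mdg4)-J* without C3 or G2 (adjusted p up to 0.0552).

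**Figure D5:**
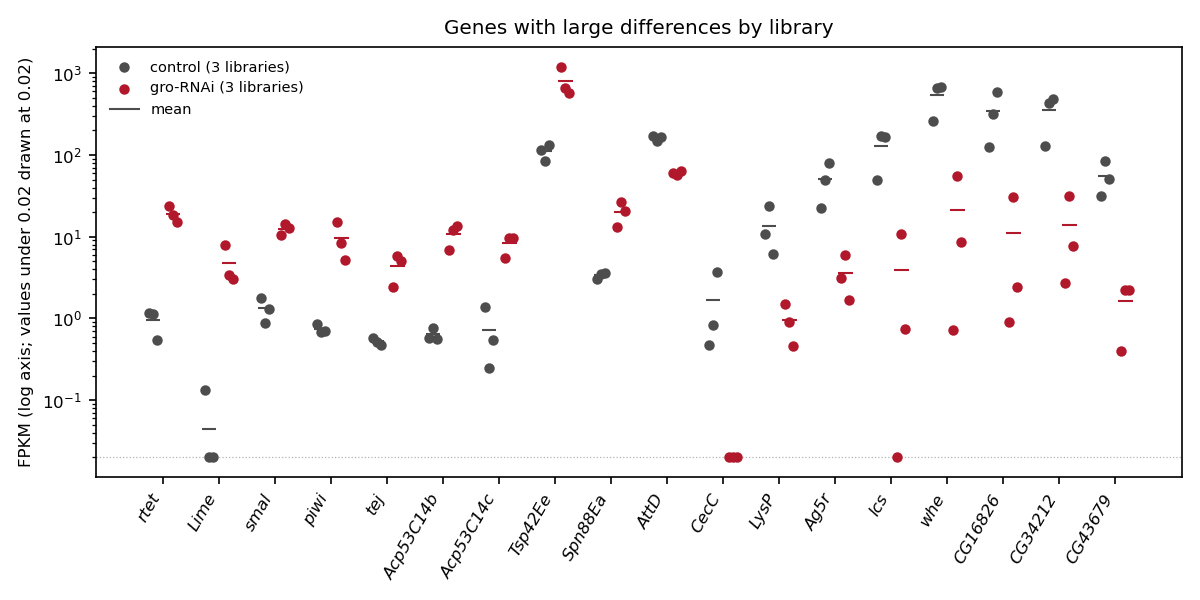
FPKM (log axis) of genes with large differences in each of 3 control and 3 *gro-RNAi* libraries, with 1 point per library and a line at the group mean. Genes from *rtet* to *Spn88Ea* lie higher and genes from *AttD* to *CG43679* lower in *gro-RNAi*, and the spread among *gro-RNAi* libraries is widest for *lcs*, *whe*, *CG16826* and *CG34212*.

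The third group of the series, *Notch-RNAi*, shares the control libraries, so only values are set beside each other and the difference between the depletions was not tested here. *lcs* was at 0, 0 and 0.13 FPKM in *Notch-RNAi*, *whe* at 0, 0.314 and 0.27 FPKM and *CG16826* at 0.0544, 0.223 and 0.102 FPKM. Every one of these values was below all control libraries. *rtet* was at 1.06, 0.88 and 1.55 FPKM, *Cyp6a17* at 13.004, 10.1 and 17.2 FPKM and *Acp53C14b* at 2.19, 1.19 and 1.54 FPKM. The first 2 lay in or near the range of control, and *Acp53C14b* lay above control and below every *gro-RNAi* library. *piwi* was at 3.71, 4.80 and 4.49 FPKM, *vn* at 31.2, 40.4 and 10.1 FPKM and *Tsp42Ee* at 293, 319 and 486 FPKM. For *piwi* and *Tsp42Ee* all of these values lay between the control and the *gro-RNAi* libraries. *Tk* was at 4.82, 3.39 and 5.10 FPKM, below every control and *gro-RNAi* library, while *pros* was at 7.85, 10.4 and 8.07 FPKM, at or above most of the *gro-RNAi* values.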

How the data were processed

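The deposited table holds FPKM for 17481 genes in 9 libraries, made by the authors from reads aligned with STAR 2.5.2b (the submitters' processing notes). The program and annotation behind the FPKM, and its strand setting, are not given in the sources used here. Symbols and positions came from Ensembl release 115 for the release 6 genome, which matched 17176 genes. Read depth was estimated from the steps between FPKM values under 0.3 of transcripts of at least 2500 nt.

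The 11493 genes whose mean reached 0.1 FPKM were tested in limma 3.58.1 (R 4.3.3) on log2(FPKM + 0.1). All 9 libraries shared one estimate of the spread, which followed expression level, and p-values were adjusted by Benjamini and Hochberg over all tested genes (threshold 0.05). The script was tested on simulated data. Samples were grouped by their labels.

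The genes and lists were chosen with earlier results of these data known. Listed genes not found by name among the deposited genes were left out, among them *esg*, *lola*, *da*, *Psn*, *wg*, *Med*, *ds*, *br*, *InR* and *S6k*. Named are the called members of each list with the largest changes (up to 4 a direction), the highest member in control where none was called, and the 12 largest increases and decreases outside the lists without overlap and with a mean of at least 1 FPKM in the higher group. Other genes named here, among them *sc*, *dimm*, *Tk*, *NPF*, *AstA*, *Orcokinin*, *HDAC1*, *CtBP*, *Cyp6a23*, *Tsp42Ed*, *Tsp42Ef*, *Tsp42El*, *Tsp29Fa*, *heca*, *RpS19a*, *CG30197*, *Tpi*, *Ldh* and *nanos*, were chosen after their values were seen. The alternatives were other pseudocounts, filters, scalings, prior variances and sets of libraries, a replicate block, and leaving out each library.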

Additional observations from a re-analysis of the deposited data

How the results depend on the processing

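The count of higher genes, 720, became 212 when the libraries were centred, 233 with quantile normalization, 160 with only the 6 libraries compared and 443 with the replicate block. It ranged from 260 to 744 with 1 library left out. The count of lower genes, 141, became 309 when centred, 217 with quantile normalization and 34 with only the 6 libraries, and ranged from 53 to 141 with 1 library left out. Higher genes made up 83.62% of the calls on the deposited values and 40.69% when centred. Pseudocounts of 1 and 0.01, a filter at 1 FPKM, no filter and one prior variance for all genes kept both counts within 1.5 times. Of the 153 named genes that were called, 137 and 143 kept their calls with pseudocounts of 1 and 0.01, 138 with the stricter filter, 122 without a filter, 123 with one prior variance, 93 when centred, 98 with quantile normalization and 53 with only the 6 libraries. Between 79 and 118 kept them with 1 library left out, 68 in all 6 such fits, and none changed direction under any of these alternatives.

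The sources used here do not say whether the replicate numbers pair the samples. Same-numbered control and *gro-RNAi* libraries deviated from their group means with correlations of 0.072, -0.013 and -0.029 across genes. With 3 libraries a group the deviations balance out within each group, so these correlations cannot decide whether the libraries were paired. With the replicate block 443 genes were higher and 96 lower, and 104 of the 153 named calls remained. Not every library correlated best with its own number.

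The estimated depth of 7620000 to 14000000 reads leaves few reads behind values near 0.1 FPKM. For short transcripts few reads lie behind higher values too. *CecC*, of 386 nt, was at 0.473 and 0.839 FPKM in control replicates 1 and 2 from an estimated 2 and 4 reads.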
